A study of Mus musculus with 12 samples.

Results

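Thy1, Cd2, Cd3d, Cd3e, Cd3g, Cd5, Cd6, Lck, Skap1 and Zap70 encode surface proteins and signalling proteins of T cells. They were taken by gene symbol from the count tables of Colon26 tumours, and all 10 were among the 19921 symbols. Colon26 is a mouse colon carcinoma line, grown here under the skin of wild-type BALB/c mice. The data came from 12 tumours, each of a separate mouse, in 4 groups of 3. The combination group (titled minP1_PDL1) received minP1, a peptide from the chromatin protein HMGN1 given to stimulate immunity, and antibody 10F.9G2 against the checkpoint ligand PD-L1. The anti-PD-L1 group (PDL1) received the antibody alone, the minP1 group the peptide alone, and the control group (Ct) neither. The antibody was injected into the abdomen on days 4 and 8 at 200 µg, the peptide on day 9 at 0.08 µg, and tumours were taken on day 10. The peptide of the combination group is named in the sample titles only. The sources used here give no age or sex of the mice and no control injection. Tumours had been digested and passed over Percoll to reduce tumour cells and dead cells, so the libraries sample the remaining cells of the tumour without a sort for T cells.

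The T cell receptor has no signalling tail of its own. It is carried by the CD3 chains, whose tails are phosphorylated by the kinase Lck and then bind the kinase Zap70. Cd2, Cd5 and Cd6 are surface proteins that tune this signal, Skap1 is an adaptor that links it to integrin adhesion, and Thy1 is a membrane-anchored glycoprotein that is abundant on mouse T cells. Thy1 is also made by fibroblasts, some other stromal cells and neurons.

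Libraries were shallow. Totals ranged from 133917 to 473273 counts, with 133917 to 196109 in the combination, 188008 to 322493 in anti-PD-L1, 276203 to 322613 in minP1 and 285753 to 473273 in control. Counts pooled over a group are out of 506616 in the combination, 799745 in anti-PD-L1, 910761 in minP1 and 1134230 in control. Unscaled counts of different groups are thus not on the same scale. A count of 0 therefore allows a level of up to 6.72 CPM (scaled counts per 1e+06 counts) in the deepest library and 25.6 CPM in the shallowest, from counting error alone. Bc1 and Lrrc17 together took 2.49% to 6.32% of counts in the combination, 2.35% to 4.42% in anti-PD-L1, 1.497% to 4.17% in minP1 and 1.36% to 2.34% in control. Ribosomal RNA symbols took 1.37% to 1.61% in the combination, 3.001% to 3.40% in anti-PD-L1, 3.35% to 4.45% in minP1 and 3.29% to 5.01% in control, so the combination libraries stood apart from all others. The part of this difference in the results of the combination was not tested. Counts were of tags read from the 5′ end of each transcript, so no correction for length was made.

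Counts were few for every gene but Thy1. Thy1 (chromosome 9, 44043384 to 44048579, plus strand, GRCm38) had 191 counts over the 12 libraries and Cd2 (chromosome 3, 101275899 to 101287939, minus strand) had 39. Skap1 (chromosome 11, 96464593 to 96759130, plus strand) had 34, Lck (chromosome 4, 129548344 to 129573641, minus strand) 17 and Zap70 (chromosome 1, 36761798 to 36782818, plus strand) 10. The neighbours Cd5 (chromosome 19, 10717116 to 10739002) and Cd6 (chromosome 19, 10789341 to 10830058), both on the minus strand, had 12 and 15. Cd3g (44969572 to 44980431, minus strand), Cd3d (44981786 to 44987339, plus strand) and Cd3e (44998740 to 45009627, minus strand) lie side by side on chromosome 9 and had 13, 12 and 13 counts. Cd3g and Cd3d are transcribed away from each other, from starts 1355 bases apart. Thy1, Cd2, Cd3d, Cd3g, Cd5 and Cd6 have no annotated gene overlapping them. Cd3e, Skap1 and Zap70 each overlap an annotated gene on the opposite strand, Cd3e another on its own strand and Lck a microRNA gene on its own strand. None of these neighbours was among the symbols used here, and the sources used here do not say whether the counting used strand, so the counts of these 4 genes are uncertain to that extent. Thy1 alone passed the filter on low counts and was tested among 5443 genes, and the other 9 are given as counts.

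The CD3 chains are the genes that define the receptor complex, and the sequences in front of their starts are shown because tags of this assay are read at those starts. The 250 bases before each start are from RefSeq (GRCm38.p6), where 6 of the 10 genes were matched. They are given 5′ to 3′ on the gene's strand. The RefSeq start of Cd3e lies inside the gene coordinates given above, which are of GENCODE. The last bases of its window therefore overlap those coordinates. Capitals mark matches on either strand to AGGAAG, a core that ETS factors can bind, and to CAGGTG, an E-box.
Cd3g, chr9:44980432-44980681, minus strand: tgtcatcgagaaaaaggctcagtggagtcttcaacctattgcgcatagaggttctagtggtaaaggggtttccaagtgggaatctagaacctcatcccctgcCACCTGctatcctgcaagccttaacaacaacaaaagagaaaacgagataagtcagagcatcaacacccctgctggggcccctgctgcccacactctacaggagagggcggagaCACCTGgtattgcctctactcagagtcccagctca
Cd3d, chr9:44981536-44981785, plus strand: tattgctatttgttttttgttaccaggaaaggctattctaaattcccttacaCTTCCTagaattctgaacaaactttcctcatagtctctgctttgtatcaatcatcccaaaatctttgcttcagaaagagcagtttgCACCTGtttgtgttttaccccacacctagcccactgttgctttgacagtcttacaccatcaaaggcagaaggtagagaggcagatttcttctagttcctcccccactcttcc
Cd3e, chr9:45009612-45009861, minus strand: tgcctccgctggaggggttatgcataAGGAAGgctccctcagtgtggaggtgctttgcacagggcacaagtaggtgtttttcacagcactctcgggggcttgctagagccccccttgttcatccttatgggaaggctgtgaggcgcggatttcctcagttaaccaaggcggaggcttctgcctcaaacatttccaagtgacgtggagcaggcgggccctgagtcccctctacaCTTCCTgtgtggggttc

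AGGAAG was found in the Cd3d and Cd3e windows and CAGGTG in the Cd3g and Cd3d windows, and no matches overlapped. Of 32851 windows of the same length, 29.5% held AGGAAG and 17.2% held CAGGTG on either strand. TGTGGT, a core that RUNX factors can bind (14.0% of windows), and the TATA box letters TATAAA (12.4%) were not in these 3 windows. These matches are letters only.

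Thy1 was highest in combination tumours, lower in tumours given either agent alone and lowest in controls. It had 16, 18 and 13 counts in the combination libraries, replicates 1 to 3 in turn here and below, 18, 13 and 25 in anti-PD-L1, 14, 20 and 19 in minP1 and 13, 8 and 14 in control. Scaled to library size, these are 137, 107 and 73.3 CPM in the combination, 109, 48.2 and 86.1 CPM in anti-PD-L1, 52.7, 73.2 and 62.6 CPM in minP1 and 37.2, 29.3 and 31.4 CPM in control. All 9 treated libraries lay above every control, while the treated groups overlapped except the combination and minP1, whose nearest libraries were 73.3 and 73.2 CPM. Mean levels were 106 ± 31.6 CPM in the combination, 81.0 ± 30.6 in anti-PD-L1, 62.8 ± 10.3 in minP1 and 32.6 ± 4.12 in control (SD, n = 3 each). More cells that make Thy1 and more Thy1 RNA per cell cannot be told apart in such bulk samples.

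**Figure D1:**
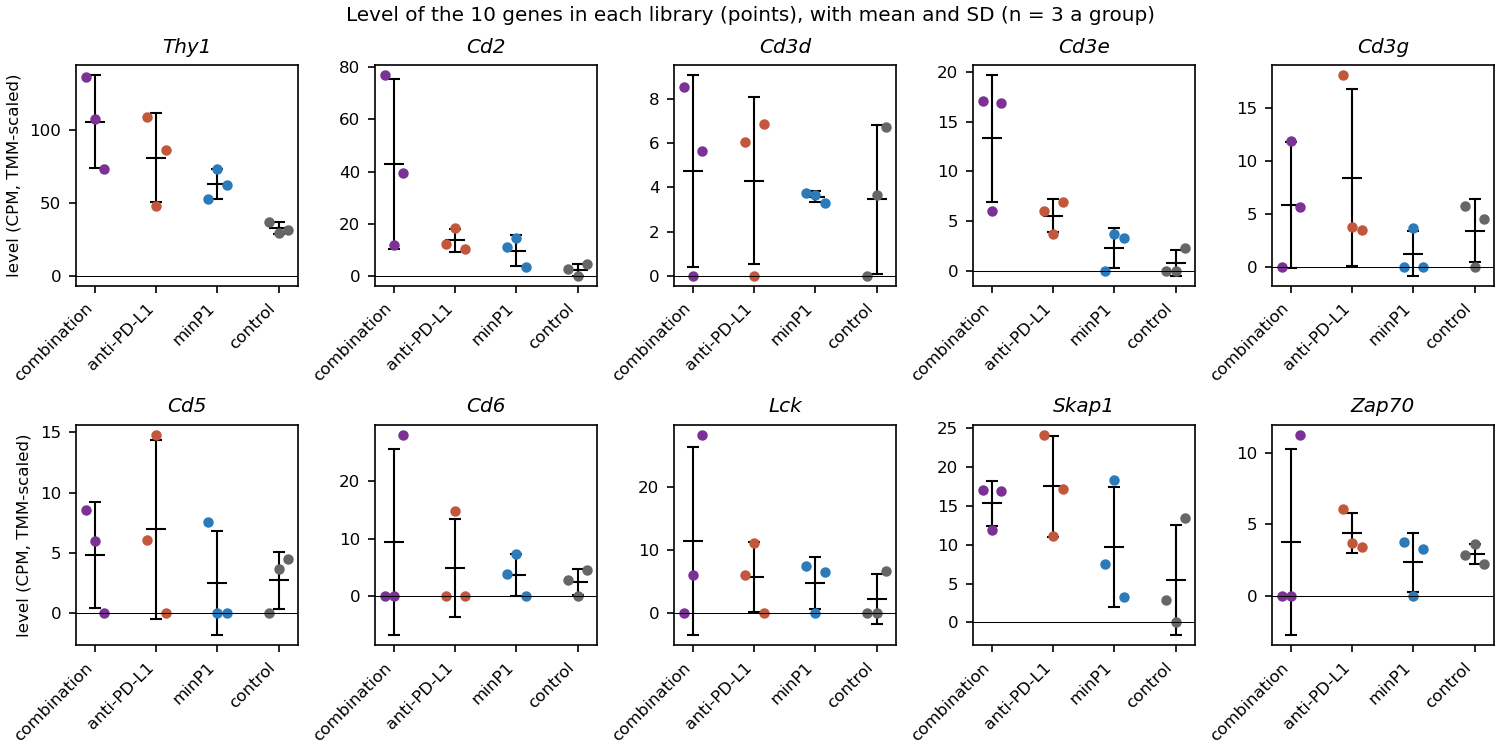
Level of each gene in CPM scaled by trimmed mean of M-values (vertical axis) in the 12 libraries, by group. Points are libraries, with the mean and SD as bars (n = 3 a group). Thy1 lies at 48.2 CPM or more in every library given the peptide, the antibody or both and at 37.2 CPM or less in every control, while most other genes have libraries at 0.

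Of the comparisons, Thy1 passed its test for combination tumours over controls. Its log2 fold change there was 1.65 ± 0.37 (SE; edgeR quasi-likelihood test, adjusted p = 0.00174). That comparison called 34.8% of all 5443 genes, 16.5% as higher, and 93.8% of genes had a smaller fold change than Thy1. Against control Thy1 differed by 1.26 ± 0.37 in anti-PD-L1 (adjusted p = 0.082), where 1.12% of genes were called and 0.551% as higher, and by 0.93 ± 0.37 in minP1 (adjusted p = 0.594), where edgeR called 0 of 5443, with 383 at an unadjusted p under 0.05, and DESeq2 called 1. The combination differed from anti-PD-L1 by 0.39 ± 0.35 (adjusted p = 0.53; 6.94% of genes called, 2.99% as higher) and from minP1 by 0.71 ± 0.35 (adjusted p = 0.154; 20% called, 9.19% as higher). The interaction, the change from minP1 on top of the antibody minus its change without the antibody, was -0.54 ± 0.51 (adjusted p = 0.753; edgeR called 0 of 5443 genes, with 600 at an unadjusted p under 0.05, and DESeq2 20). All 3 comparisons with control share the same control libraries. The median over all tested genes was -0.06 in the combination against control and lay nearer to 0 than 0.1 in the others.

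Markers of stromal cells, some of which also make Thy1, gave these values. The 11 fibroblast and pericyte markers summed to between 762 and 1272 CPM in the combination, 955 and 1049 in anti-PD-L1, 974 and 1133 in minP1 and 990 and 1391 in control. None was at 0 over a whole group. In the combination against control 0 of the 4 tested members were called higher and 2 fell, where 34.8% of all tested genes were called. Those that fell were the collagen chain Col1a2 (-0.81 ± 0.21, adjusted p = 0.0052) and the growth factor receptor Pdgfra (-2.05 ± 0.57, adjusted p = 0.00788, both edgeR). Col1a1 was at 0.53 ± 0.30 and Col3a1 at -0.04 ± 0.44. Of the untested genes, Lum (62.6 against 15.8 CPM) and Fap (4.83 against 2.86) had higher means than in control. Pdgfrb, Dcn, Rgs5, Acta2 and Postn had lower ones. The 8 endothelial markers, none of them tested, summed to between 35.8 and 76.8 CPM in the combination, 0 and 24.1 in anti-PD-L1, 15.1 and 22.0 in minP1 and 10.97 and 28.6 in control, so all 3 combination libraries lay above every control. Pecam1 held 15 of the 22 combination counts of this list (mean 36.1 CPM against 3.61 in control). Cdh5 was at 8.60 CPM against 9.03, and Kdr, Tek and Eng had 0 counts against 5, 2 and 1. Cldn5 had 2 counts against 0, Emcn 1 in each group and Vwf 0 in each. The part of these cells in the level of Thy1 was not tested.

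Cd2, the adhesion receptor that binds CD48 in the mouse, had its highest counts in combination tumours. It had 9, 2 and 7 counts in the combination libraries, 2, 5 and 3 in anti-PD-L1, 3, 4 and 1 in minP1 and 1, 0 and 2 in control. These are 76.8, 11.9 and 39.5 CPM in the combination, 12.1, 18.5 and 10.3 in anti-PD-L1, 11.3, 14.6 and 3.29 in minP1 and 2.86, 0 and 4.48 in control. All 6 libraries given the antibody lay above every control, and combination replicate 2 lay among the anti-PD-L1 libraries. Pooled, 18 combination counts against 3 control counts gave a ratio per library total of 13.4 with a 95% exact counting interval of 3.92 to 71.2. Leaving out 1 library gave ratios from 9.13 (without combination replicate 1) to 23.5 (without control replicate 3). The anti-PD-L1 ratio to control was 4.73 (1.22 to 26.7) from 10 and 3 counts, and the minP1 ratio was 3.32 (0.797 to 19.4) from 8 and 3. The combination ratio was 2.84 (1.24 to 6.89) to anti-PD-L1 and 4.04 (1.67 to 10.8) to minP1. These intervals cover counting error and not the spread between mice.

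In an edgeR fit without the filter on low counts Cd2 passed against control in the combination, with a log2 fold change of 3.57 ± 0.81 (adjusted p = 0.000355), where 9.66% of 19921 genes were called. It did not pass in anti-PD-L1 (2.16 ± 0.91, adjusted p = 0.391; 0.838% called) or minP1 (1.63 ± 0.94, adjusted p = 0.859; 0.256% called), nor in the combination against minP1 (1.94 ± 0.70, adjusted p = 0.0901; 5.03% called) or against anti-PD-L1 (1.41 ± 0.68, adjusted p = 0.435; 1.99% called). Its interaction was -0.22 ± 0.82 (adjusted p = 1; 0.186% called). Thy1 and Cd2 were the 2 of the 10 genes that passed in any comparison of that fit. All 10 fitted values of the combination against control were positive, with a median of 1.36, where the median of all genes was -0.29.

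The CD3 chains, which carry the signalling motifs of the receptor, were at the edge of detection. Cd3e had 2, 1 and 3 counts in the combination libraries, 1, 1 and 2 in anti-PD-L1, 0, 1 and 1 in minP1 and 0, 0 and 1 in control. It was found in every library given the antibody, all above the highest control, and the combination ratio to control was 13.4 (1.63 to 618) from 6 counts against 1. That 1 count was in control replicate 3, the deepest library, so 1 count in any other library lies above it. Cd3e did not pass in the edgeR fit without the filter (3.20 ± 1.32, adjusted p = 0.114). Cd3d had 1, 0 and 1 counts in the combination libraries, 1, 0 and 2 in anti-PD-L1, 1, 1 and 1 in minP1 and 0, 1 and 3 in control. Cd3g had 0, 2 and 1 counts in the combination libraries, 3, 1 and 1 in anti-PD-L1, 0, 1 and 0 in minP1 and 2, 0 and 2 in control. Groups overlapped in both genes. The combination ratio to control was 1.12 (0.101 to 7.81) for Cd3d and 1.68 (0.246 to 9.93) for Cd3g, so neither a rise nor a fall was detectable at this depth. Together the 3 chains had 11 counts in the combination, 12 in anti-PD-L1, 6 in minP1 and 9 in control, at 23.9 ± 5.36, 18.3 ± 11.4, 7.11 ± 3.64 and 7.61 ± 5.15 CPM in the same order (SD, n = 3 each).

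**Figure D2:**
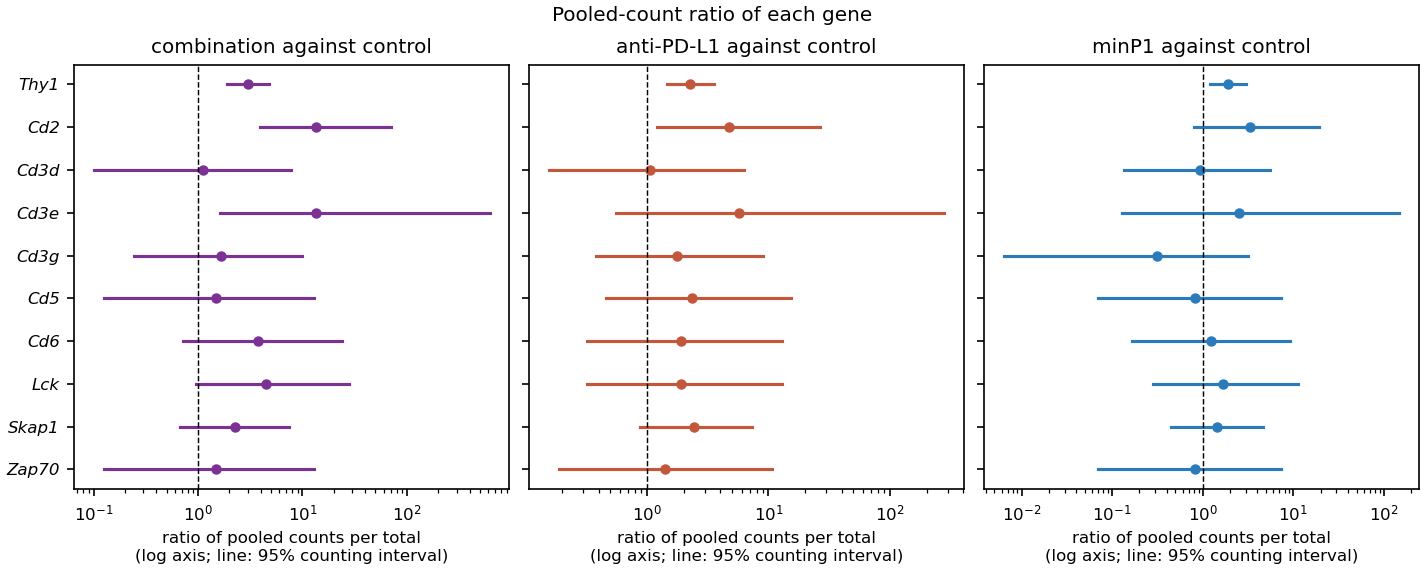
Ratio of pooled counts per library total to control (horizontal log axis) for each gene, in the combination, anti-PD-L1 and minP1. Points are ratios and lines are 95% exact counting intervals. In the combination the intervals of Thy1, Cd2 and Cd3e lie above 1 and the other 7 include it.

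The kinases and the adaptor had few counts too, with Lck found in 7 libraries, Zap70 in 9 and Skap1 in 11 of 12. Lck, the kinase that starts the receptor signal, had 0, 1 and 5 counts in the combination libraries, 1, 3 and 0 in anti-PD-L1, 2, 0 and 2 in minP1 and 0, 0 and 3 in control. Zap70, which binds the phosphorylated chains, had 0, 0 and 2 counts in the combination libraries, 1, 1 and 1 in anti-PD-L1, 1, 0 and 1 in minP1 and 1, 1 and 1 in control. Skap1 had 2, 2 and 3 counts in the combination libraries, 4, 3 and 5 in anti-PD-L1, 2, 5 and 1 in minP1 and 1, 0 and 6 in control. Groups overlapped in all of them. Control replicate 3 held all 3 control counts of Lck and 6 of the 7 of Skap1. The combination ratio to control was 4.48 (0.956 to 27.7) for Lck, 1.49 (0.125 to 13.0) for Zap70 and 2.24 (0.67 to 7.48) for Skap1. Without control replicate 3 the Skap1 ratio was 9.13, and without combination replicate 3 the Lck ratio was 1.15.

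The scavenger-type receptors Cd5 and Cd6, which dampen or tune the receptor signal, were found in 7 and 6 of the 12 libraries. Cd5 had 1, 1 and 0 counts in the combination libraries, 1, 4 and 0 in anti-PD-L1, 2, 0 and 0 in minP1 and 0, 1 and 2 in control. Cd6 had 0, 0 and 5 counts in the combination libraries, 0, 4 and 0 in anti-PD-L1, 1, 2 and 0 in minP1 and 1, 0 and 2 in control. All 5 Cd6 counts of the combination and 5 of its 6 Lck counts were in replicate 3, and all 4 Cd6 counts of anti-PD-L1 were in replicate 2. The combination ratio to control was 1.49 (0.125 to 13.0) for Cd5 and 3.73 (0.726 to 24.0) for Cd6.

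As a sum, the 10 genes had more counts per library total in every treated group than in control. They summed to 31, 27 and 40 counts in the combination libraries, 32, 35 and 39 in anti-PD-L1, 26, 34 and 26 in minP1 and 19, 11 and 36 in control. The summed levels were 265, 161 and 226 CPM in the combination, 193, 130 and 134 in anti-PD-L1, 97.8, 124 and 85.6 in minP1 and 54.4, 40.2 and 80.6 in control. All 9 treated libraries lay above every control, and combination and anti-PD-L1 libraries overlapped. Means were 217 ± 52.3 CPM in the combination, 152 ± 35.5 in anti-PD-L1, 103 ± 19.9 in minP1 and 58.4 ± 20.5 in control (SD, n = 3 each). The pooled ratio to control was 3.32 (2.41 to 4.61) in the combination, 2.28 (1.66 to 3.15) in anti-PD-L1 and 1.62 (1.16 to 2.27) in minP1. No p is given for the sum, because the genes were chosen with results of these data known.

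**Figure D3:**
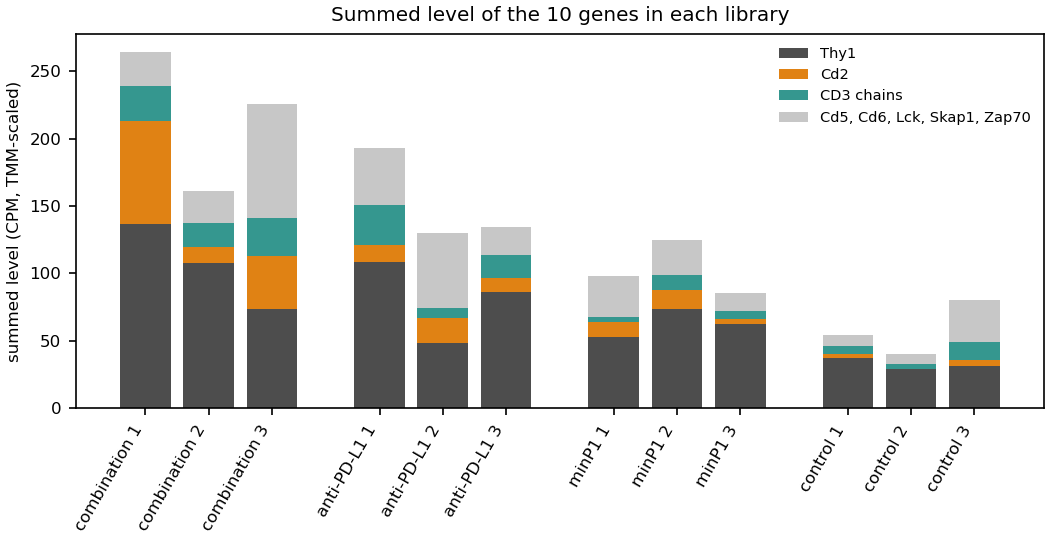
Summed level of the 10 genes in CPM (vertical axis, from 0) in each of the 12 libraries, stacked by gene or gene group. Combination libraries lie between 161 and 265 CPM and controls between 40.2 and 80.6 CPM, and Thy1 is the largest stretch in most bars.

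Thy1 carried a large share of the sum in each group, 48.0% in the combination (95% exact interval 37.8 to 58.3), 52.8% in anti-PD-L1 (42.9 to 62.6), 61.6% in minP1 (50.5 to 71.9) and 53.0% in control (40.3 to 65.4). These intervals overlap. Without Thy1 the other 9 genes had 15, 9 and 27 counts in the combination libraries, 14, 22 and 14 in anti-PD-L1, 12, 14 and 7 in minP1 and 6, 3 and 22 in control. Control replicate 3, the deepest library, held 22 of the 31 control counts and was the only library with a count of all 10 genes. The ratio of these 9 to control was 3.68 (2.31 to 5.95) in the combination, 2.29 (1.43 to 3.70) in anti-PD-L1 and 1.33 (0.787 to 2.24) in minP1. The anti-PD-L1 and minP1 libraries overlapped the controls in this sum, and the combination libraries did not.

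Gene by gene, all 10 ratios to control were above 1 in the combination and in anti-PD-L1, and 6 of 10 in minP1. Several of these directions turned when 1 library was left out. The lowest such ratio in the combination was 0.749 for Cd3d, 0.913 for Cd3g and 0.999 for Cd5, and in anti-PD-L1 it was 0.594 for Cd3d, 0.741 for Cd5, 0.741 for Lck and 0.927 for Cd3g. Cd6 and Zap70 had 0 combination counts without combination replicate 3, and Cd6 had 0 anti-PD-L1 counts without anti-PD-L1 replicate 2. In the combination 3 of the 10, Thy1, Cd2 and Cd3e, had every library above every control, where 8.13% of all 19921 genes did. The same 3 genes did so in anti-PD-L1, where 4.57% of all genes did, and Thy1 alone did so in minP1, where 3.33% did. In the combination against minP1 2 genes had no overlap, Thy1 and Cd3e, both higher (6.61% of all genes), and in the combination against anti-PD-L1 none of the 10 did (4.94%). For Cd3e, 1 count gave 5.97 CPM in combination replicate 2 and 6.04 and 3.71 in anti-PD-L1 replicates 1 and 2. The same 1 count gave 3.66 and 3.29 CPM in minP1 replicates 2 and 3 and 2.24 in control replicate 3. Between these libraries the separation of Cd3e thus rests on depth. Counting intervals lay above 1 for Thy1, Cd2 and Cd3e in the combination against control, where 10.2% of 18076 genes with a count had such an interval, for Thy1 and Cd2 in anti-PD-L1 (5.09% of 18216) and for Thy1 in minP1 (4.04% of 18636). Against anti-PD-L1 the combination had such an interval for Cd2 (7.64% of 16535) and against minP1 for Thy1 and Cd2 (8.77% of 17338). Of the 10 genes 7 had under 20 counts in all, and their ratios move far with a few counts.

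Partners of the receptor signal did not pass the test. Of a list of 36 further genes of the receptor complex and its signalling, 35 were in the tables and 5 were tested, and in the combination against control 0 rose and 0 fell (median log2 fold change 0.34, where all genes had -0.06). The tested genes were the adaptors Fyb (0.36 ± 0.42) and Nck1 (1.22 ± 0.63), the phosphatases Ptpn7 (0.34 ± 0.39) and Ptpn6 (-0.26 ± 0.42) and Ptprc, the CD45 phosphatase of all leukocytes (-1.23 ± 0.53, adjusted p = 0.076, edgeR). The combination against control called 34.8% of all tested genes. None of the 5 was called in any of the other comparisons. The summed level of the 35 genes overlapped between groups, at 471 to 674 CPM in the combination, 435 to 510 in anti-PD-L1, 435 to 487 in minP1 and 375 to 551 in control. Untested genes of the list went both ways. Cblb, a ubiquitin ligase that restrains the signal, had 26 counts in the combination, 14 in anti-PD-L1, 9 in minP1 and 8 in control, the transcription factor Nfatc1 had 20, 10, 11 and 6, and the GTPase Rhoh had 15, 12, 6 and 4. The adaptor Skap2 had 6 counts in the combination, 14 in anti-PD-L1, 20 in minP1 and 44 in control, and the phosphatase Ptpn22 had 1, 9, 22 and 16. The coreceptor Cd4 had 6 counts in the combination, 2 in anti-PD-L1, 2 in minP1 and 0 in control, Cd8a had 1, 0, 2 and 4, and Cd8b1 had 3, 8, 8 and 7 in the same order. Scaled to library size, the means in that order were 2.85, 0, 2.32 and 3.19 CPM for Cd8a. For Cd8b1 they were 6.82, 12.1, 9.83 and 5.64 CPM. The fourth CD3-associated chain, Cd247, had 1 count in the combination and 0 in the other groups.

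Of 20 genes of T cell identity, 13 were in the tables. The receptor constant genes of that list were not among the symbols used here, so they gave no values. In the combination against control 1 of the 3 tested genes rose, Ms4a4b, a tetraspan protein of T cells, at 56.5 ± 18.2 CPM in the combination, 28.3 ± 3.61 in anti-PD-L1, 20.3 ± 4.76 in minP1 and 10.1 ± 8.76 in control (SD, n = 3 each; log2 fold change to control 2.37 ± 0.62, adjusted p = 0.00486), and 1 fell, the transcription factor Ets1 (-1.54 ± 0.54, adjusted p = 0.0281, both edgeR). Ltb, a cytokine of lymphocytes, was at 0.11 ± 0.57. That comparison called 34.8% of all tested genes, 16.5% as higher. The summed level of the 13 genes overlapped between groups. It was 152 to 230 CPM in the combination, 137 to 199 in anti-PD-L1, 98.8 to 172 in minP1 and 68.7 to 176 in control. Il7r, the interleukin 7 receptor, had 13 counts in the combination, 5 in anti-PD-L1, 3 in minP1 and 1 in control, and Bcl11b, a T lineage factor, had 7, 12, 12 and 10 in the same order. Scaled to library size, mean levels of Bcl11b were 16.3 CPM in the combination, 19.4 in anti-PD-L1, 14.6 in minP1 and 10.2 in control.

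Ligands and partners of Cd2, Cd5, Cd6 and Thy1 moved in both directions in the combination. Of 15 listed genes 14 were in the tables and 6 were tested, and 2 rose and 1 fell against control, where 34.8% of all tested genes were called. Itgav (1.43 ± 0.28, adjusted p = 0.000487) and Itgb2 (1.45 ± 0.41, adjusted p = 0.00827), integrin chains of receptors that can bind Thy1, were higher, and Cd2ap, an adaptor named for its binding to Cd2 and active in many cell types, was lower (-1.66 ± 0.34, adjusted p = 0.000763, all edgeR). Itgam, the partner chain of Itgb2 in myeloid cells, was at 0.76 ± 0.32 (adjusted p = 0.0695). Cd48, the ligand of Cd2, had 3 counts in the combination, 2 in anti-PD-L1, 0 in minP1 and 6 in control, and Alcam, a ligand of Cd6, had 13, 7, 7 and 9. Scaled to library size, the means in that order were 6.72, 2.38, 0 and 6.10 CPM for Cd48. For Alcam they were 26.9, 10.8, 8.24 and 8.08 CPM.

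Other cells that could carry some of these transcripts gave the following values, whose part in the results was not tested. The 12 NK cell markers in the tables summed to between 125 and 197 CPM in the combination, 104 and 145 in anti-PD-L1, 110 and 194 in minP1 and 84.1 and 163 in control, with 0 of 2 tested genes called. Nkg7 had 0 counts in the combination and in anti-PD-L1 and 7 each in minP1 and control. Klrk1, Tyrobp and Ncr1 also had lower means in the combination than in control. The means of Gzma, Fcer1g, Klrd1 (19.2 against 7.01 CPM), Eomes (17.0 against 3.87), Klrb1c, Klre1, Xcl1 and Klra4 were higher. The 7 B and plasma cell markers summed to between 41.8 and 51.2 CPM in the combination, 24.1 and 72.5 in anti-PD-L1, 19.8 and 69.6 in minP1 and 17.9 and 20.0 in control. Of the 7 B and plasma genes Pax5 alone was tested and rose in the combination (2.30 ± 0.72, adjusted p = 0.0167, edgeR), and it held 18 of the 21 combination counts of the list. The surface proteins Cd22, Ms4a1 and Cd79b had 1 count each in the combination, against 7, 2 and 0 in control, and Mzb1 had 0 against 2. Scaled to library size, mean levels were 2.85 against 6.64 CPM for Cd22, 1.88 against 1.70 for Ms4a1 and 1.88 against 0 for Cd79b. Macrophage and monocyte markers summed to between 1196 and 2168 CPM in the combination, 861 and 1245 in anti-PD-L1, 681 and 1080 in minP1 and 807 and 967 in control. Against control 2 of 7 tested genes in the combination were called higher and 1 lower, where 34.8% of all tested genes were called and 16.5% as higher. C1qc and Ms4a7 were higher and Lyz2 was lower (-1.36 ± 0.36, adjusted p = 0.00558, edgeR). C1qa and C1qc held 222 and 208 of the 681 combination counts of this list. C1qa, Ly6c2, Cd14, Adgre1 and Csf1r had higher means in the combination than in control, and C1qb and Cd68 lower ones. Neutrophil markers summed to between 507 and 606 CPM in the combination, 220 and 293 in anti-PD-L1, 230 and 300.3 in minP1 and 318 and 378 in control, above every control in the combination and below every control with either agent alone. Of 4 tested neutrophil genes 3 were called higher and 1 lower in the combination against control, where 16.5% of all tested genes were called higher. S100a9, Mmp9 and Csf3r were higher and Cxcr2 was lower (-1.16 ± 0.26, adjusted p = 0.0017, edgeR). S100a9 and Mmp9 held 80 and 72 of the 253 combination counts of this list. S100a8 had 2 counts in the combination and 2 in control, and Retnlg, Ly6g and Cxcr1 had 0 against 7, 0 and 1. The 7 dendritic markers summed to between 83.5 and 95.9 CPM in the combination, 58.5 and 139 in anti-PD-L1, 42.8 and 135 in minP1 and 25.8 and 73.9 in control. Siglech alone of them was tested and rose in the combination (2.29 ± 0.67, adjusted p = 0.0112, edgeR), while Zbtb46, Ccr9, Itgax and Cd209a had 0 counts there, against 7, 7, 6 and 3 in control. The 5 epithelial markers in the tables summed to between 0 and 59.7 CPM in the combination, 11.1 and 17.2 in anti-PD-L1, 0 and 11.3 in minP1 and 3.66 and 22.4 in control. They had 11 counts in the combination, 7 of them of Krt18, and 17 in control.

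**Figure D4:**
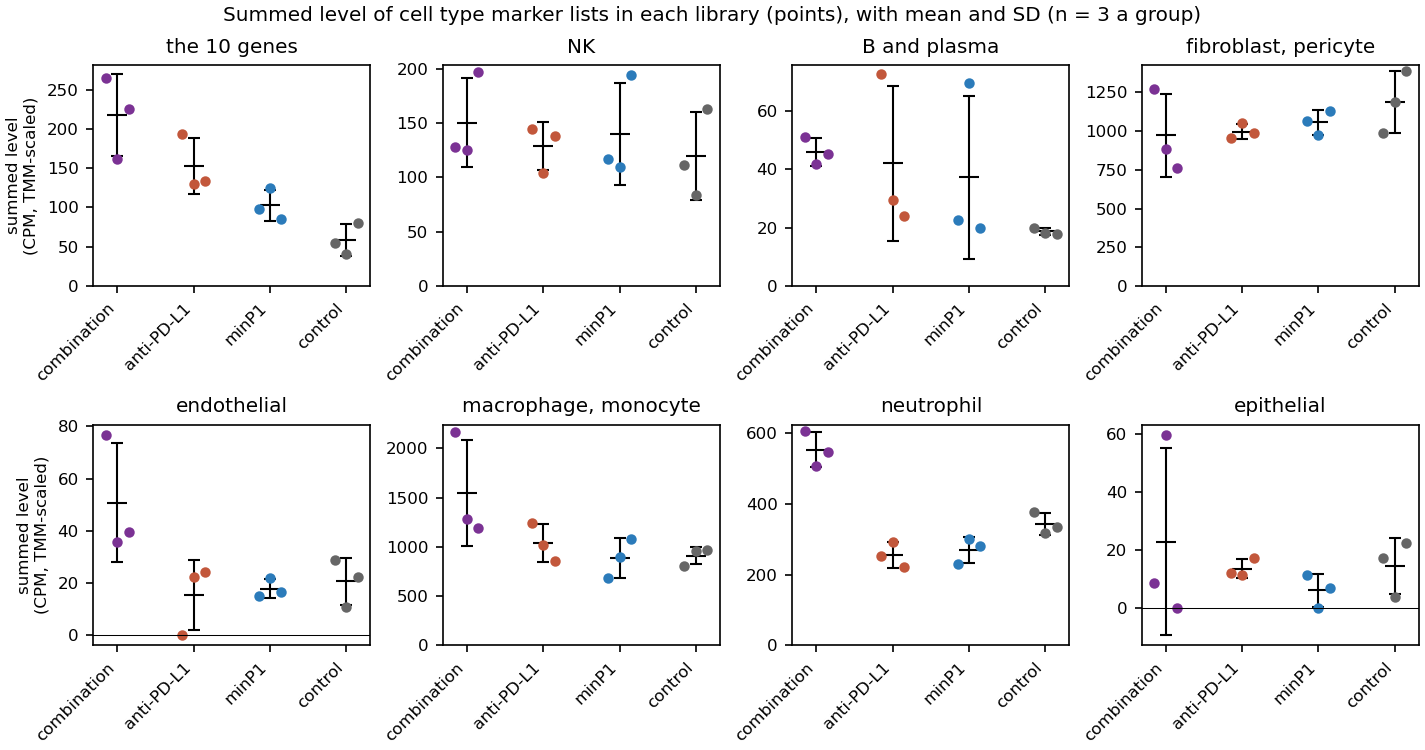
Summed level in CPM (vertical axis) of the 10 genes and of 7 lists of cell type markers in the 12 libraries, by group. Points are libraries, with the mean and SD as bars (n = 3 a group). The 10 genes lie above every control in all 9 treated libraries. In the combination the B and plasma, endothelial, macrophage and monocyte, and neutrophil markers lie above every control too. So do the B and plasma markers in anti-PD-L1. The NK, epithelial, and fibroblast and pericyte markers of the combination overlap the controls.

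Among the tested genes, those whose log2 level followed Thy1 most closely over the 12 libraries were Gm2573 (Pearson r = 0.95), St6galnac4 (0.94), Tmem106c (0.94), Gm8430 (0.93) and Psma6 (0.93). With group means removed they were Ociad1 (0.96), Ptges3 (0.96), Bri3 (0.92), Qdpr (0.92) and Aen (0.92). For the sum of the 10 genes they were the transporters Slc2a1 (0.96) and Slc16a3 (0.96), H2-K1 (0.96), Grn (0.95) and B2m (0.95), and with group means removed Zeb2 (0.94), Scand1 (0.93), Csnk1a1 (0.91), Snx4 (0.89) and Slc12a2 (0.88). These are the highest of 5442 genes compared and describe these libraries, which share groups and depth.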

How the data were processed

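Raw counts per gene symbol were used as deposited by the authors, 1 table for each of 12 libraries, with no normalization. Per the labels' protocols, RNA of total tumour cells was amplified and sequenced from the 5′ end on an Ion S5. Build mm10 and the tools DESeq2, R 3.6.1 and Bowtie2 2.2.5 are named, per the submitters' processing notes, without their roles. For the counting tool, its annotation, strand and reads with several matches, nothing is given in the sources used here. Each sample is the tumour of 1 mouse, per the labels' protocols. No molecular identifiers are recorded, so intervals and floors (3 counts) cover counting error only.

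Groups came from the titles. Genes were kept with filterByExpr at its defaults (minimum count 10), which left 5443 genes with 89.8% to 93.6% of counts. Counts were scaled by trimmed mean of M-values (TMM), and CPM are per 1e+06 counts of the kept genes after that scaling. Differences were tested in R 4.3.3 by the quasi-likelihood method of edgeR 4.0.16, with 1 mean per group over all 12 libraries, with Benjamini-Hochberg adjustment over all tested genes and a threshold of 0.05, for 6 comparisons. The script was tested on simulated data. Pooled ratios used library totals, with 95% exact conditional binomial intervals. A permutation of 3 against 3 cannot give a two-sided p under 0.1, so none was run. Likeness to Thy1 was Pearson's r of log2 CPM with a prior count of 2. Alternatives were other scalings, no filter, DESeq2 1.42.0, limma voom 3.58.1, fewer groups, a replicate term and leaving out each library.

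The 10 genes and the 11 other lists were chosen with earlier results of these data known. All 10 are named, with up to 4 genes per list by total count and further genes of the lists, chosen after their values were seen, where they bear on the receptor or on the make-up of a list. Coordinates are of GENCODE vM21 (GRCm38).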

Additional observations from a re-analysis of the deposited data

How the results depend on the processing

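With each alternative Thy1 kept its direction and its side of the threshold in all 6 comparisons, where a value could be had (DESeq2 gave no adjusted p against control for anti-PD-L1). In the combination against control it ranged from 1.51 to 1.88 (adjusted p 0.00102 to 0.0114) and in anti-PD-L1 against control from 1.05 to 1.55 (adjusted p 0.0525 to 0.315). The number of the 10 genes called in the combination against control was 1, and 2 with no filter on low counts, where Cd2 passed too. It was 1 to 2 when a library was left out, Cd2 being tested and passing in 10 of these 12 fits and not tested without combination replicate 1 or 3. In the combination against minP1 it was 0 to 1, with Cd2 passing without combination replicate 2 (adjusted p = 0.0379), the combination library lowest in Cd2, and not in the other 9 (adjusted p 0.0516 to 0.215). The summed level, as a difference of mean log2 CPM, was 1.92 in the combination against control, 1.42 in anti-PD-L1 against control, 0.50 in the combination against anti-PD-L1 and 1.07 in the combination against minP1. With only Cd2 and the CD3 chains these were 2.84, 1.92, 0.92 and 1.92, and without Thy1 the last was 1.43. Leaving out libraries gave 1.71 to 2.18, 1.20 to 1.68, 0.37 to 0.73 and 0.97 to 1.32. For minP1 against control the sum was 0.85 (0.61 to 1.12) and for the interaction -0.35 (-0.63 to -0.11), which was 0.0046 with only Cd2 and the CD3 chains. The cause of these shifts was not tested.

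The 12 samples share replicate numbers across groups. Of 18 same-numbered pairs 9 had deviations correlated above 0.1 (range -0.14 to 0.21), and 2 of 12 libraries correlated best with their own number. These weak correlations do not settle whether the numbers pair the samples. With a replicate block the number of the 10 genes called stayed 1 in the combination against control and 0 in the other 5 comparisons, and 173 of all genes were called in anti-PD-L1 against control against 61 without the block. That count was 167 with no filter, 126 with the 2 groups alone and 1 to 169 when a library was left out (1 without control replicate 2). In minP1 against control no filter gave 51 calls, DESeq2 1 and leaving out a library 0 to 5, where the main count was 0. In the interaction no filter gave 37, DESeq2 20, the block 16 and leaving out a library 0 to 8, against 0. Leaving out a library gave 94 to 499 calls in the combination against anti-PD-L1 (378) and 600 to 1346 in the combination against minP1 (1088). Depth limits 9 of the 10 genes, which had 10 to 39 counts over 12 libraries and wide counting intervals.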

Other observations

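Ctla4, the T cell checkpoint receptor, had more counts than the 3 CD3 chains together in 11 of the 12 libraries, control replicate 1 being the exception. It had 19, 17 and 29 counts in the combination libraries, 10, 13 and 10 in anti-PD-L1, 7, 15 and 3 in minP1 and 1, 2 and 13 in control. The 3 CD3 chains together had 3, 3 and 5 counts in the combination libraries, 5, 2 and 5 in anti-PD-L1, 1, 3 and 2 in minP1 and 2, 1 and 6 in control. Pooled, Ctla4 was 9.10 times control in the combination (95% exact counting interval 5.20 to 16.8) and the CD3 chains 2.74 times (1.03 to 7.47). Ctla4 was chosen after its values were seen. Control replicate 3 held 13 of 16 control counts of Ctla4 and 6 of 9 of the CD3 chains.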
